A study of Mus musculus with 5 samples.

Results

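Droplets that carried both insulin and glucagon transcripts in quantity are described here, and are called dual-hormone droplets below. Each is 1 cell barcode of a droplet library. A barcode was kept when it had at least 1000 unique molecular identifiers (UMIs, which count captured transcripts), at least 500 detected genes and at most 15% of UMIs from the mitochondrial genome. It was a dual-hormone droplet when Ins1 and Ins2, the 2 mouse insulin genes, together made up at least 20% of its UMIs and Gcg, the glucagon gene, at least 5%, with Sst (somatostatin) under 1% and Ppy (pancreatic polypeptide) under 2%. Of 22758 kept barcodes, 269 were dual-hormone droplets. They were set against 11290 insulin-only barcodes (insulin at least 20%, Gcg under 1%) and 4722 glucagon-only barcodes (Gcg at least 5%, insulin under 5%), both with the same limits on Sst and Ppy.

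The study set a hydrolyzed casein diet against chow. Islets came from 2 mice fed 20% hydrolyzed casein (HC), aged 7 and 9 weeks, and from 3 chow-fed mice, aged 8, 10 and 10 weeks. All 5 were of the NOD.SCID genotype (strain NOD.Cg-Prkdcscid/J), whose Prkdc mutation leaves them without mature T and B cells. Islets were freed with collagenase, picked by hand and broken up with trypsin, and each mouse gave 1 droplet library that captures the 3 prime ends of transcripts. The title of HC mouse 2 calls it chow-fed; its diet label says HC, and the design counts 2 HC mice, so it was used as HC.

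Beta cells make insulin and alpha cells make glucagon, and in the mouse the 2 kinds lie next to each other within an islet. Each keeps its identity through its own transcription factors. Mafa, Pdx1 and Nkx6-1 serve the mature beta cell, while Irx1 and Irx2 are expressed in the alpha cell. Barcodes with both hormones can come from a cell that makes both, from cells caught together, or from free transcripts in a droplet; which of these applied here was not tested.

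The libraries held 28722244 to 39624978 UMIs over 4452 to 6087 barcodes. Any pair of libraries shared 4 to 14 barcode sequences, and 0 of those were dual-hormone droplets in both libraries of the pair. The labels give libraries a FUN or a SKY prefix, with 1 HC and 1 chow mouse under FUN and 1 HC and 2 chow mice under SKY. Scrublet, a doublet caller, marked 14 of 22758 kept barcodes (0.062%), which is too few for its calls to be used, and no barcode was removed on that ground. Of those 14, 7 were dual-hormone droplets. Its score placed the median dual-hormone droplet at the 98.3 and 97.9 percentile of its own library in HC mice 1 and 2 and at the 99.2, 98.5 and 97.5 percentile in chow mice 1, 2 and 3. The median insulin-only barcode stood at the 51.6 to 57.3 percentile and the median glucagon-only barcode at the 21.2 to 30.1 percentile. The counts given to Scrublet included Ins1, Ins2 and Gcg, the genes that chose the dual-hormone droplets. Its scores and calls are thus not independent of that choice and are given as a description.

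The hormone shares chose the droplets and are given as a description. The median dual-hormone droplet had 39.3% and 48.3% insulin UMIs in HC mice 1 and 2 and 39.7%, 47.2% and 46.3% in chow mice 1, 2 and 3. Its Gcg share was 13.2% and 12.0% in the HC mice and 12.9%, 12.0% and 13.0% in the chow mice. Across the 269 droplets insulin ran from 20.2% to 64.5% and Gcg from 5.05% to 35.8%. Insulin-only barcodes had a median of 60.9% to 68.8% insulin, and glucagon-only barcodes a median of 40.5% to 44.4% Gcg. Counted as UMIs, the median dual-hormone droplet held 80.3% to 110% of the insulin UMIs of the median insulin-only barcode of the same mouse. It held 77.5% to 100.3% of the Gcg UMIs of the median glucagon-only barcode. In 852 barcodes with endothelial markers, which were limited by choice to under 5% insulin and 1% Gcg, the median insulin share was 0.328% to 2.25% and the median Gcg share 0.037% to 0.0697% over the 5 mice. Both hormones were thus lower as shares than in their own class, and near that class as molecules per barcode.

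**Figure D1:**
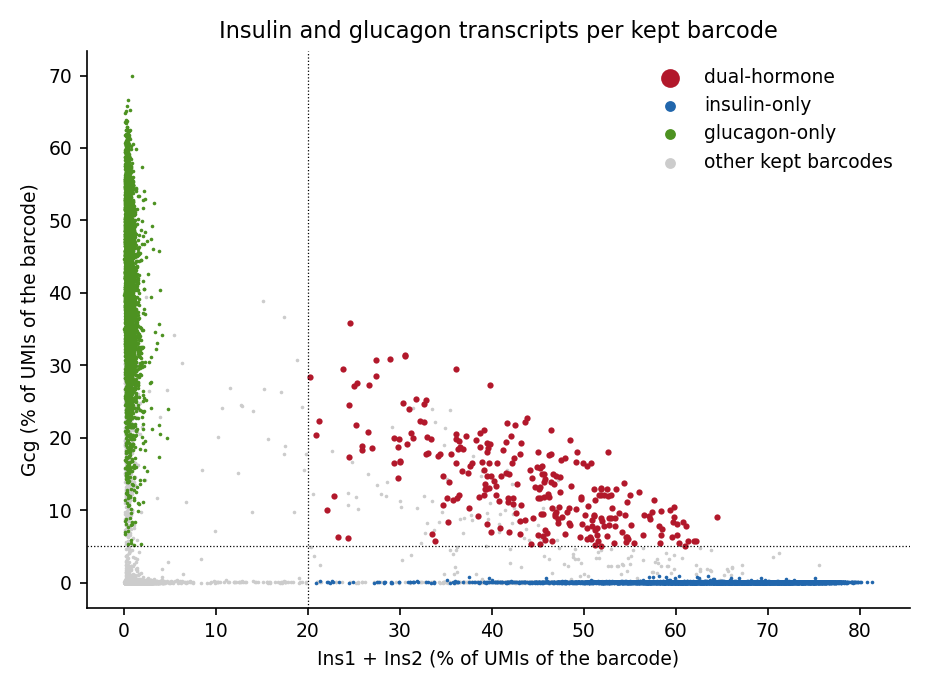
Each point is 1 kept barcode, with the share of its UMIs from Ins1 and Ins2 on the x axis and from Gcg on the y axis, in percent; dotted lines mark 20% and 5%. The 269 dual-hormone droplets lie to the right of and above these lines, the 11290 insulin-only barcodes along the x axis and the 4722 glucagon-only barcodes along the y axis.

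Barcodes lay on both sides of each threshold. With insulin at 20% or more, 19 dual-hormone droplets had 5% to 6% Gcg, just inside, and 12 barcodes had 4% to 5%, just outside. With Gcg at 5% or more, 12 droplets had 20% to 25% insulin and 8 barcodes had 15% to 20%. Those 8 had a median of 4264 UMIs, and the 12 just inside had 9471.5. In wider windows, 62 barcodes had 1% to 5% Gcg with insulin at 20% or more. With Gcg at 5% or more, 17 barcodes had 5% to 20% insulin. Without the limits on Sst and Ppy, 335 barcodes would have qualified.

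Ins1 lies on mouse chromosome 19 (chr19:52264297-52265476), Ins2 on chromosome 7 (chr7:142678656-142743381) and Gcg on chromosome 2 (chr2:62474530-62483650), in GRCm38 with the GENCODE M21 annotation. Ins1, the retroposed copy, and Ins2, the ancestral gene, were present together in the droplets. Ins1 made up 28.3% and 27.97% of insulin UMIs in dual-hormone droplets of HC mice 1 and 2 and 28.1%, 27.6% and 28.9% in those of chow mice 1, 2 and 3. In insulin-only barcodes it made up 28.6% to 29.3%.

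Dual-hormone droplets were found in every mouse. HC mice 1 and 2 had 68 and 36, and chow mice 1, 2 and 3 had 29, 77 and 59. As a share of kept barcodes this was 1.41% and 0.816% in the HC mice and 0.793%, 1.503% and 1.24% in the chow mice, so the diets overlapped. Averages were 1.11% ± 0.421 over the 2 HC mice and 1.18% ± 0.359 over the 3 chow mice (SD). HC minus chow was -0.0668 percentage points (two-sided exact permutation p = 0.8; the smallest p these groups allow is 0.1). The difference was 0.617 points within the FUN libraries and -0.557 within the SKY libraries, and its sign turned without HC mouse 2 (0.231) or without chow mouse 2 (0.095). For each 100 glucagon-only barcodes of the same mouse there were 5.28 and 3.45 dual-hormone droplets in HC mice 1 and 2, and 3.86, 8.96 and 7.55 in chow mice 1, 2 and 3.

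Dual-hormone droplets were deep. Their median was 8445.5 and 12063 UMIs in HC mice 1 and 2 and 14970, 12996 and 10334 in chow mice 1, 2 and 3. The insulin-only median was 6411 and 9631 in the HC mice and 8337, 8447 and 7277 in the chow mice. The glucagon-only median was 3501 and 3772 in the HC mice and 4728, 3834 and 3556 in the chow mice. In all 5 mice the dual-hormone median was the highest of the 3. The mean fold was 1.45 over insulin-only and 2.99 over glucagon-only (two-sided exact sign-flip permutation p = 0.0625 for each, the smallest that 5 mice allow; 0.125 after Benjamini-Hochberg adjustment over 6 tests).

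The depth of dual-hormone droplets lay close to the insulin-only and glucagon-only medians added together. It was 85.2% and 90.0% of that sum in HC mice 1 and 2 and 115%, 106% and 95.4% in chow mice 1, 2 and 3. With the hormone genes Ins1, Ins2, Gcg, Sst and Ppy left out of all counts, the values were 88.4% and 86.9% in the HC mice and 116%, 100.5% and 91.5% in the chow mice. Depth alone did not mark them out: the median droplet stood at the 87.4 percentile of UMIs in its own mouse, and 43 of the 269 were above the 95th. Individual droplets ran from 1546 to 29864 UMIs.

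They also had the most detected genes, 1864 and 2079 at the median in HC mice 1 and 2 and 2651, 2089 and 1851 in chow mice 1, 2 and 3. Insulin-only barcodes had 1261 to 1615 and glucagon-only barcodes 1007 to 1283. After each barcode was thinned at random to 1000 UMIs outside the hormone genes, dual-hormone droplets had 642 and 649 detected genes in the HC mice and 657, 646 and 649.5 in the chow mice. Insulin-only barcodes then had 640 and 647 in the HC mice and 644, 654 and 656 in the chow mice. The mean difference from insulin-only was 0.5 genes (SD 8.40, n = 5 mice; higher in 3 of 5; exact sign-flip p = 0.875). Thinned instead to 2000 UMIs in all, hormone genes included, the mean difference from insulin-only was 79.8 genes (SD 20.8; higher in 5 of 5 mice; exact p = 0.0625), so its size depends on the thinning. Against glucagon-only barcodes, which had 618 to 635, the mean difference was 22.3 genes (SD 8.30; higher in 5 of 5 mice; exact p = 0.0625, adjusted 0.125). Thinned instead to 2000 UMIs in all, the mean difference from glucagon-only was -133.6 genes (SD 38.8, exact sign-flip p = 0.0625), so its sign depends on the thinning. Thinning left out at most 1 dual-hormone droplet, 45 insulin-only and 20 glucagon-only barcodes in any mouse.

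**Figure D2:**
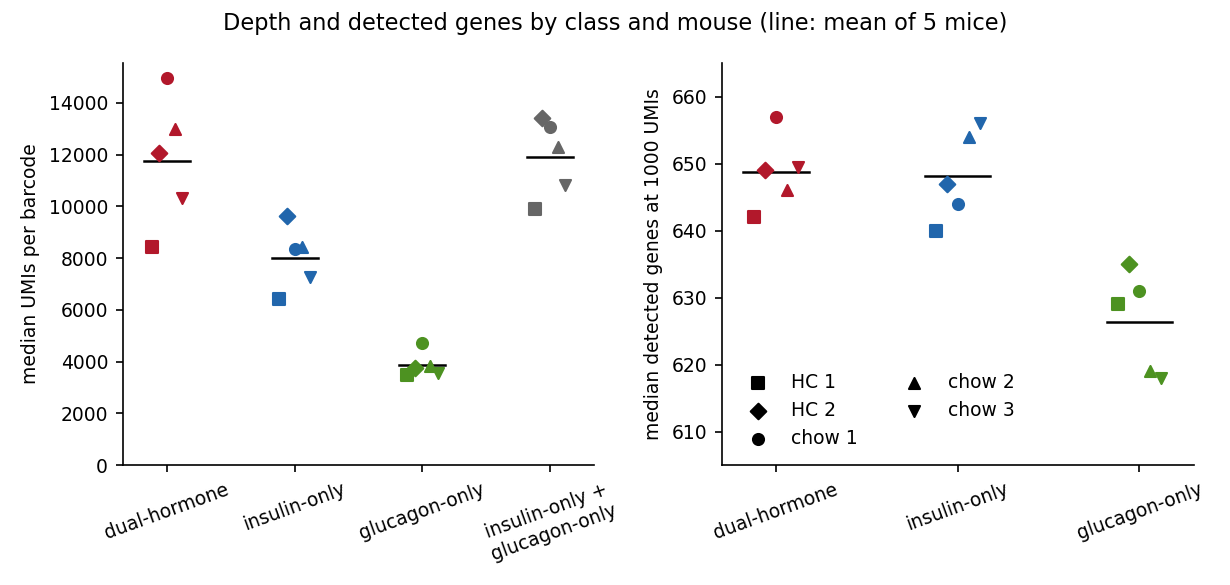
Median UMIs per barcode (left, axis from 0) and median detected genes after thinning to 1000 UMIs outside the hormone genes (right, axis starting above 0), 1 symbol per mouse, line at the mean of 5 mice; grey symbols are the insulin-only and glucagon-only medians of a mouse added together. Dual-hormone medians run from 8445.5 to 14970 UMIs beside sums of 9912 to 13403, while the thinned gene counts of dual-hormone and insulin-only barcodes overlap.

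Transcription factors of both cell types were found in the same droplets. Mafa (chr15:75745490-75748228) activates the insulin genes in mature beta cells, and Irx1 (chr13:71957921-71963723) and Irx2 (chr13:72628820-72634198) are Iroquois factors of alpha cells. The choice of Irx1 and Irx2 alone was made after the data were seen. At least 1 UMI of Mafa and at least 1 of Irx1 or Irx2 were found in 120 of 269 dual-hormone droplets (44.6%, 95% exact binomial interval 38.6% to 50.8%, counting error only). The share was 44.1% and 50% in HC mice 1 and 2 and 48.3%, 45.5% and 38.98% in chow mice 1, 2 and 3. Both were found in 41 of 11290 insulin-only barcodes (0.363%) and in 54 of 4722 glucagon-only barcodes (1.14%), at most 3.46% in any mouse. The dual-hormone share was far above both at full depth, in all 5 mice.

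Of the remaining dual-hormone droplets, 107 had Mafa alone, 24 had Irx1 or Irx2 alone and 18 neither. Those with both had a median of 12288 UMIs and those with neither 8116.5. Of 852 barcodes with endothelial markers, which should lack these factors, 0 had both, which allows a share of up to 0.432% (exact 95% upper bound), and 19 (2.23%) had Mafa. They were shallow, at a median of 1328 UMIs in the 833 with neither, so they do not bound the background at the depth of dual-hormone droplets. After thinning to 1000 UMIs the share with both was 7.46% and 2.78% in dual-hormone droplets of HC mice 1 and 2 and 6.90%, 0% and 6.90% in those of chow mice 1, 2 and 3. Insulin-only barcodes then had 0.0386% to 0.111% and glucagon-only barcodes 0% to 1.35%. The mean difference was 4.73 points from insulin-only (SD 3.29) and 4.43 points from glucagon-only (SD 3.11), higher in 4 of 5 mice in each case (exact sign-flip p = 0.125, adjusted 0.15). In chow mouse 2 no thinned dual-hormone droplet had both.

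For tests across genes, counts were summed by class and mouse, which gave 15 sums, and compared with edgeR's quasi-likelihood test with mouse as a block. The hormone genes Ins1, Ins2, Gcg, Sst and Ppy were left out of the test and of the library sizes, since they chose the classes. Of 11003 genes, 751 were higher (6.83%) and 587 lower (5.33%) in dual-hormone than in insulin-only sums at an adjusted p under 0.05, and 1075 were higher (9.77%) and 934 lower (8.49%) than in glucagon-only sums. In either direction 12.2% and 18.3% of genes were called in these comparisons. Insulin-only and glucagon-only sums differed in 6822 genes (62%), with 3302 higher (30%) and 3520 lower (32%) in insulin-only sums. Both comparisons with dual-hormone droplets share the dual-hormone sums, so each is given with its own values. Log2 changes below are of counts scaled to the UMIs outside the hormone genes; UMIs per barcode are not scaled.

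Beta cell genes had UMIs per droplet near those of insulin-only barcodes and lower shares of the UMIs outside the hormone genes. Of 13 genes on the beta list, 0 were higher and 11 lower than in insulin-only sums (median log2 change -0.81, against -0.03 over all genes), and 11 were higher and 0 lower than in glucagon-only sums (median 5.69, against -0.04). Summed over the list, dual-hormone droplets had 233 and 292 UMIs per barcode in HC mice 1 and 2 and 431, 309 and 201 in chow mice 1, 2 and 3. Insulin-only barcodes had 286 and 330 in the HC mice and 390, 308 and 227 in the chow mice. Glucagon-only barcodes had 3.56 to 5.70. The ranges of dual-hormone and insulin-only barcodes overlap, and both lie far above glucagon-only barcodes. In dual-hormone and insulin-only barcodes, Iapp made up most of these UMIs.

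Mafa averaged 3.22 ± 1.73 UMIs per dual-hormone droplet, 3.63 ± 1.32 per insulin-only barcode and 0.0229 ± 0.0192 per glucagon-only barcode (SD, n = 5 mice). By mouse, dual-hormone droplets had 2.04 and 3.22 in HC mice 1 and 2 and 6.17, 2.77 and 1.92 in chow mice 1, 2 and 3. Insulin-only barcodes had 2.49 and 3.81 in the HC mice and 5.77, 3.43 and 2.64 in the chow mice. Mafa was higher in dual-hormone droplets in chow mouse 1 and lower in the other 4 mice. As a share it fell by 0.94 on the log2 scale against insulin-only sums (SE 0.152, edgeR adjusted p = 0.00309, lower in 5 of 5 mice). It was 6.05 log2 units higher than in glucagon-only sums (SE 0.255, adjusted p = 1.48e-07).

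The other beta factors followed the same order. Pdx1, needed for pancreas formation and for insulin transcription, had a log2 change of -0.75 ± 0.113 (SE) against insulin-only and 5.39 ± 0.21 against glucagon-only sums (edgeR adjusted p = 1.9e-07 and 1.73e-35). Nkx6-1, which holds beta identity, had -0.87 ± 0.0805 and 4.29 ± 0.122 (adjusted p = 5.41e-17 and 2.4e-59).

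Slc2a2, Iapp, Ucn3, G6pc2 and Trpm5 were also lower than in insulin-only and higher than in glucagon-only sums. Slc2a2, the glucose transporter GLUT2, averaged 2.15 UMIs per dual-hormone droplet, 2.60 per insulin-only barcode and 0.0128 per glucagon-only barcode. Its log2 changes were -1.01 and 6.31 (edgeR adjusted p = 9.05e-23 and 1.91e-69). Iapp, which encodes amylin, the peptide stored with insulin, averaged 269 UMIs per dual-hormone droplet, 284 per insulin-only barcode and 1.97 per glucagon-only barcode (log2 -0.81 and 5.96). Ucn3, a maturity marker of mouse beta cells, had 1.02 to 2.03 UMIs per dual-hormone droplet over the 5 mice, 1.44 to 2.34 per insulin-only and at most 0.0107 per glucagon-only barcode (log2 -0.95 and 6.99). G6pc2, the islet glucose-6-phosphatase, and the channel gene Trpm5 had log2 -0.76 and -0.75 against insulin-only, and 4.73 and 7.28 against glucagon-only sums.

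Slc30a8, the zinc transporter of the insulin granule, passed neither test. Slc30a8 averaged 4.62 UMIs per dual-hormone droplet, 3.12 per insulin-only and 1.95 per glucagon-only barcode. Its log2 values were -0.13 (adjusted p = 0.153) and 0.12 (0.169) in edgeR. It was detected in both single-hormone classes, and its UMIs per dual-hormone droplet were 91.1% of those classes added together. Glp1r, the GLP-1 receptor, had 0.927 UMIs per dual-hormone droplet and 1.22 per insulin-only barcode (log2 -1.06 ± 0.138, edgeR adjusted p = 1.87e-05).

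Alpha cell genes mirrored this. All 10 genes on the alpha list were higher than in insulin-only sums (median log2 change 4.42) and all 10 were lower than in glucagon-only sums (median -1.27). Summed over the list, dual-hormone droplets had 60.7 and 52.1 UMIs per barcode in HC mice 1 and 2 and 82.7, 80.0 and 70.5 in chow mice 1, 2 and 3. Glucagon-only barcodes had 69.4 and 70.8 in the HC mice and 115, 74.7 and 77.7 in the chow mice, and insulin-only barcodes 4.95 to 7.52. Dual-hormone droplets had fewer alpha UMIs than glucagon-only barcodes in 4 mice and more in chow mouse 2. Ttr made up most of these UMIs.

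Irx1 had 0.515 and 0.389 UMIs per dual-hormone droplet in HC mice 1 and 2 and 0.690, 0.377 and 0.475 in chow mice 1, 2 and 3. Glucagon-only barcodes had 0.583 and 0.479 in the HC mice and 0.755, 0.421 and 0.460 in the chow mice, while insulin-only barcodes had at most 0.00322. The log2 change of Irx1 was 7.51 ± 0.263 (SE) against insulin-only and -1.25 ± 0.128 against glucagon-only sums (edgeR adjusted p = 1.04e-45 and 2.74e-14). Irx2 averaged 0.369 UMIs per dual-hormone droplet, 0.00395 per insulin-only and 0.446 per glucagon-only barcode (log2 5.92 and -1.31; adjusted p = 9.44e-45 and 7.98e-15).

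Ttr, transthyretin, a carrier protein made in quantity by alpha cells, had 46.9 to 74.4 UMIs per dual-hormone droplet over the 5 mice, 4.24 to 6.44 per insulin-only and 62.5 to 106 per glucagon-only barcode (log2 2.91 and -1.37). Gc, the vitamin D binding protein, had log2 1.89 and -1.03. The amino acid transporter genes Slc38a5 and Slc7a2 had log2 4.59 and 0.76 against insulin-only, and -1.42 and -0.41 against glucagon-only sums; each of these passed (edgeR adjusted p from 1.38e-13 to 0.00624), though the change of Slc38a5 against glucagon-only sums had an adjusted p of 0.0531 without chow mouse 2. Slc7a2, present in both single-hormone classes, averaged 1.65 UMIs per dual-hormone droplet, 0.617 per insulin-only and 1.03 per glucagon-only barcode.

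**Figure D3:**
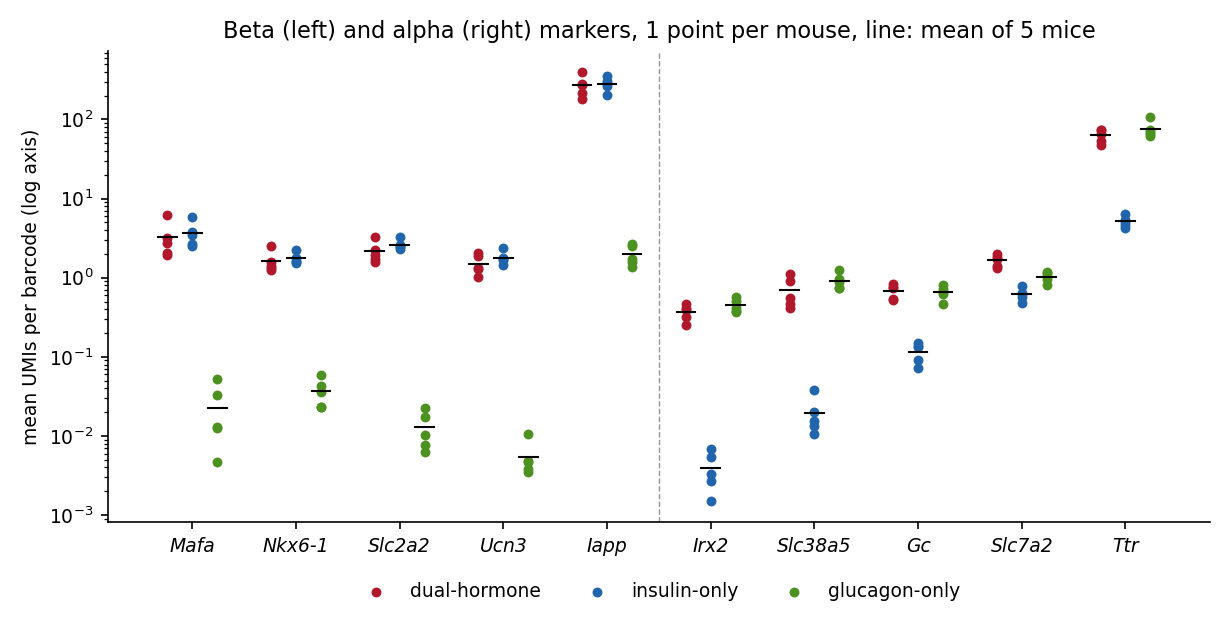
Mean UMIs per barcode on a log axis for 5 beta markers (left of the dashed line) and 5 alpha markers (right), 1 point per mouse and a line at the mean of 5 mice. Dual-hormone droplets sit beside insulin-only barcodes for beta markers, such as Mafa at 3.22 and 3.63, and beside glucagon-only barcodes for alpha markers, such as Irx2 at 0.369 and 0.446, except Slc7a2, which is higher in them (1.65) than in glucagon-only barcodes (1.03).

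Among genes past the test with a mean of at least 5 log2 CPM (counts scaled to a common total) and the same sign in all 5 mice, the 10 largest increases included Irx1 and Irx2. Also among them were Pdk4 (8.26), a kinase that holds back pyruvate oxidation, Edn3 (8.25), an endothelin, Ndst4 (6.81), Higd1a (6.04), Ctxn2 (5.83), Oxtr (5.57), the oxytocin receptor, and Pappa2 (5.42), a protease of IGF-binding proteins, as log2 changes. Edn3 averaged 0.320 UMIs per dual-hormone droplet, 0.000563 per insulin-only and 0.320 per glucagon-only barcode. Higd1a averaged 0.809 per dual-hormone droplet, 0.00732 per insulin-only and 0.887 per glucagon-only barcode.

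Under the same limits, the 10 largest increases over glucagon-only sums were, beside Trpm5, Ucn3 and Slc2a2, Car10 (log2 8.06), Msln (7.02), Plut (6.77), Gm27033, B830017H08Rik, Car15 (6.53) and Prss53 (6.27). Plut is the long noncoding RNA next to Pdx1, and Car10 and Car15 belong to the carbonic anhydrase family. Plut averaged 0.517 UMIs per dual-hormone droplet, 0.491 per insulin-only and 0.00219 per glucagon-only barcode.

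Under the same limits, the largest decreases against insulin-only sums were those of Npy and Car15. Npy, neuropeptide Y, fell by 1.42 on the log2 scale against insulin-only sums (SE 0.219, edgeR adjusted p = 0.00234) and Car15 by 1.41 (SE 0.0981, 1.52e-25), while the median of the beta list was -0.81. Npy had 0.0588 and 1.11 UMIs per dual-hormone droplet in HC mice 1 and 2 and 0.655, 1.30 and 0.881 in chow mice 1, 2 and 3. In insulin-only barcodes Npy had 0.406 and 1.48 in the HC mice and 2.10, 1.502 and 1.33 in the chow mice. Its level was lower in dual-hormone droplets in all 5 mice, and HC mouse 1 had the least in both classes. Car15 averaged 0.724 per dual-hormone droplet and 1.21 per insulin-only barcode, lower in each of the 5 mice. Nnat, Gad1 (the GABA-synthesizing enzyme), Pde5a, Sorl1, Eps8, Fmnl2 and Stim1 (the calcium sensor of the endoplasmic reticulum) were the others of largest decrease by the naming rule, beside Glp1r, with log2 from -1.28 to -1.02. Whether these genes differ from the beta list was not tested.

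Under the same limits, the 10 largest decreases against glucagon-only sums included Oat (log2 -1.65), ornithine aminotransferase, Eef1a2 (-1.52), Slc38a5, Rcn3 (-1.41), Ttr, Hapln1, Pdk4, Uchl1 and Irx2. Eef1a2, a translation elongation factor of neurons and muscle, averaged 0.391 UMIs per dual-hormone droplet, 0.0141 per insulin-only and 0.526 per glucagon-only barcode.

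**Figure D4:**
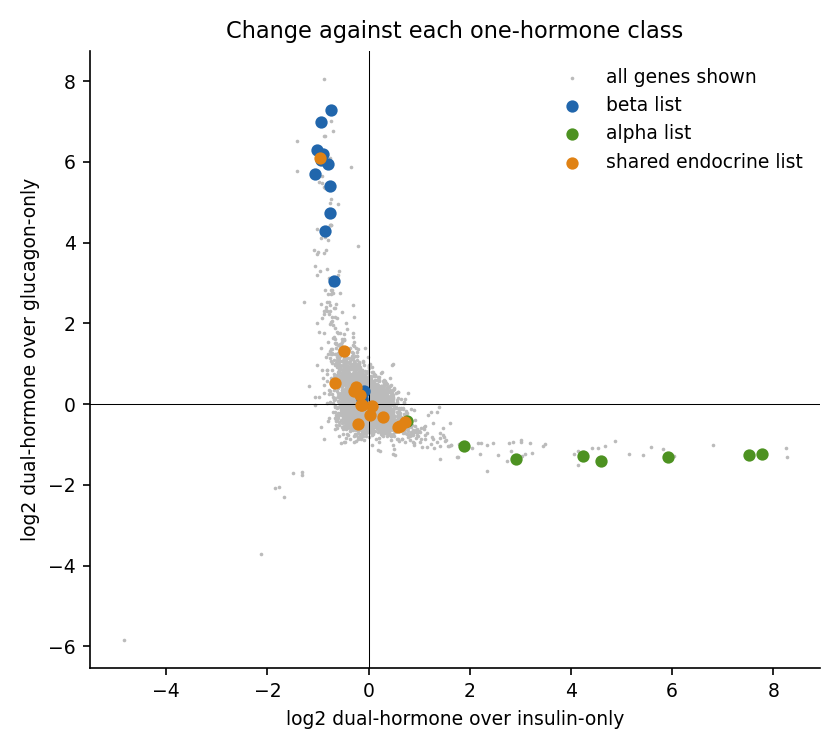
Log2 change of dual-hormone over insulin-only sums (x axis) and over glucagon-only sums (y axis) for genes with a mean of at least 5 log2 CPM; both axes share the dual-hormone sums. Beta genes lie at the upper left around a median of -0.81 and 5.69, alpha genes at the lower right around 4.42 and -1.27, and Slc30a8 near the origin.

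For genes that separate the 2 single-hormone classes strongly, the place of dual-hormone droplets between them is given as a description. The same sums chose these genes and set the ends of the scale, so lying between is no test. For 127 genes at least 2 log2 units higher in insulin-only than in glucagon-only sums (mean log2 CPM of at least 5), all 127 lay between. On a linear scale from 0 (glucagon-only) to 100 (insulin-only) their median position was 54.5, with quartiles of 51.1 and 59.4. For 69 genes higher in glucagon-only sums, all 69 lay between, at a median of 56.2 on the same scale. With a limit of 1 log2 unit, 404 of 405 insulin-side and 231 of 231 glucagon-side genes lay between. By mouse the insulin-side genes summed together stood at 54.2 and 58.0 in HC mice 1 and 2 and at 61.2, 56.6 and 52.9 in chow mice 1, 2 and 3. The glucagon-side genes summed together stood at 56.8 and 59.0 in the HC mice and at 68.3, 53.0 and 55.8 in chow mice 1, 2 and 3, with chow mouse 1 the farthest toward insulin-only. The insulin-only median made up 56.4% and 59.1% of the insulin-only and glucagon-only medians of UMIs outside the hormone genes in the HC mice, and 56.2%, 55.4% and 54.6% in the chow mice.

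Molecules per barcode were also set against the 2 single-hormone classes. Depth outside the hormone genes was itself near the 2 medians added together, so the percents below are not independent of depth. Over 4804 genes with a mean of at least 5 log2 CPM, the UMIs per dual-hormone droplet were at the median 92.1% of the UMIs per insulin-only and per glucagon-only barcode added together (quartiles 85.2% and 98.8%). The median was 82.5% and 86.1% in HC mice 1 and 2 and 102%, 94.9% and 87.4% in chow mice 1, 2 and 3. Averaged over mice, 4795 of the 4804 genes were between 50% and 200%, a wide window. Within a mouse, 4602 and 4460 were in HC mice 1 and 2 and 4576, 4724 and 4585 in chow mice 1, 2 and 3.

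Genes that both cell types use were called in both directions. Of the 15 shared endocrine genes, 4 were higher and 5 lower than in insulin-only sums, and 5 higher and 5 lower than in glucagon-only sums. The call of Chgb against insulin-only sums was lost without HC mouse 1 or 2 (edgeR adjusted p = 0.0841 and 0.175). Summed, dual-hormone droplets had 134 and 141 UMIs of these genes in HC mice 1 and 2 and 229, 177 and 144 in chow mice 1, 2 and 3. That was 80.6% and 85.2% of the insulin-only and glucagon-only values added together in the HC mice, and 101.2%, 95.8% and 92.0% in the chow mice.

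The prohormone convertases show the pattern gene by gene. Pcsk1, which cuts proinsulin, averaged 0.885 UMIs per dual-hormone droplet, 1.07 per insulin-only and 0.00586 per glucagon-only barcode (log2 -0.96 ± 0.1 and 6.09 ± 0.199, SE; edgeR adjusted p = 1.92e-13 and 2.18e-46). Pcsk2, which cuts proglucagon to glucagon and also works on proinsulin, averaged 17.7 per dual-hormone droplet, 7.10 per insulin-only and 11.7 per glucagon-only barcode (log2 0.62 ± 0.0487 and -0.54 ± 0.0486; adjusted p = 1.61e-21 and 5.72e-18). Pcsk2 was higher per dual-hormone droplet than in either class in all 5 mice, with 15.7 and 15.4 in HC mice 1 and 2 and 23.8, 17.9 and 15.8 in chow mice 1, 2 and 3.

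Among the granins, proteins of the secretory granule, Chga had 37.2 to 70.5 UMIs per dual-hormone droplet over the 5 mice, 25.9 to 40.6 per insulin-only and 14.2 to 30.4 per glucagon-only barcode, with log2 values that did not pass (-0.14 and -0.02; edgeR adjusted p = 0.487 and 0.953). Scg2 was lower than in insulin-only sums (-0.49) and higher than in glucagon-only sums (1.32). Isl1, a factor of all islet endocrine cells, was higher than in insulin-only sums (0.71) and lower than in glucagon-only sums (-0.44). Neurod1, Nkx2-2, Pax6 and Rfx6, transcription factors of the endocrine lineage, passed neither test.

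Markers of a less mature endocrine state were sparse. Of 6 genes on that list 3 could be tested: 2 were higher than in insulin-only sums (Fev, log2 3.39, and Sox4, 0.41) and 1 was lower than in glucagon-only sums (Sox4, -0.59). The call of Sox4 against insulin-only sums was lost without HC mouse 2 (edgeR adjusted p = 0.122) or chow mouse 3 (0.058). Fev, a factor of endocrine precursors, had 0.206 and 0.167 UMIs per dual-hormone droplet in HC mice 1 and 2 and 0.207, 0.156 and 0.0678 in chow mice 1, 2 and 3, against at most 0.0121 per insulin-only and 0.0896 to 0.154 per glucagon-only barcode. Neurog3, the endocrine progenitor factor, had 2 UMIs over all 269 droplets, and Aldh1a3, linked to beta cell dedifferentiation, had 1. Of 10 proliferation genes 5 could be tested and 0 passed in either comparison; Mki67 had 3 UMIs in all.

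Transcripts of acinar, stromal, leukocyte and endothelial genes were few in dual-hormone droplets, while Pyy and Rbp4 of the PP and delta lists were not. Of 10 acinar genes, 5 stromal and 6 leukocyte genes tested, 0 passed in either comparison. Of 4 endothelial genes tested, 1 was lower than in insulin-only sums (Flt1) and 2 were lower than in glucagon-only sums (Flt1 and Emcn). Without chow mouse 2 the calls of Flt1 against insulin-only (edgeR adjusted p = 0.107) and Emcn (0.185) were lost. The acinar list summed to 0.260 to 4.05 UMIs per dual-hormone droplet over the 5 mice, 0.758 to 3.71 per insulin-only and 0.412 to 5.00 per glucagon-only barcode. The leukocyte list summed to 0.286 to 4.79, 0.334 to 0.559 and 0.249 to 2.71 in the same order. Its high values were those of HC mouse 2 (3.28) and chow mouse 1 (4.79). There Cd74, the invariant chain of MHC class II, had 2.86 and 3.24 UMIs per dual-hormone droplet, against at most 0.0260 in the other 3 mice. At least 3 leukocyte UMIs were found in 2.78% of 36 droplets of HC mouse 2 and 3.45% of 29 of chow mouse 1. The share was 2.94% of 68 in HC mouse 1 and 0 in chow mice 2 and 3. Each of these shares is very few droplets. Ptprc, the pan-leukocyte gene, had 1 UMI in all 269, and of the stromal list Pdgfrb had 0. The part of these cells in the results was not tested. Of 4 delta genes 2 could be tested, and of 3 PP genes 1. Of these, Rbp4 and Pyy passed: both were higher than in insulin-only sums (log2 4.53 and 4.23) and lower than in glucagon-only sums (-1.09 and -1.18). Rbp4 averaged 7.97 UMIs per dual-hormone droplet, 0.217 per insulin-only and 7.53 per glucagon-only barcode, and Pyy averaged 25.2, 0.853 and 25.2 in that order. The decrease of Pyy did not pass without HC mouse 1 or any of chow mice 1, 2 and 3 (edgeR adjusted p from 0.115 to 0.159). Of the ductal list, Krt18 was higher than in insulin-only sums (0.26, lost without HC mouse 1 or chow mouse 1, edgeR adjusted p = 0.196 and 0.234) and Krt8 lower than in glucagon-only sums (-0.45).

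Stress and mitochondrial genes were called in opposite directions in the 2 comparisons, and the single-hormone classes also differed in them. In insulin-only against glucagon-only sums, 2 of 14 heat-shock and immediate-early genes were higher and 10 lower. Of 10 unfolded protein genes 9 were higher and 0 lower, and all 13 mitochondrial genes were higher. Over all genes, 6.83% were higher and 5.33% lower than in insulin-only sums, and 9.77% and 8.49% than in glucagon-only sums. Of 14 heat-shock and immediate-early genes, which dispersal of tissue can induce, 7 were higher than in insulin-only sums and 8 lower than in glucagon-only sums, with 0 in the opposite direction in each case. Fos, an immediate-early gene, had log2 0.62 and -0.54, and Junb 0.42 and -0.57. Without chow mouse 2 the calls of Atf3 and Nr4a1 against insulin-only sums were lost (edgeR adjusted p = 0.430 and 0.167), and Atf3 against glucagon-only sums was lost without HC mouse 2, chow mouse 1 or chow mouse 3 (0.0982 to 0.221). Of 10 genes of the unfolded protein response, 6 were lower than in insulin-only and 7 higher than in glucagon-only sums, such as Sdf2l1, an endoplasmic reticulum chaperone partner (-0.53 and 1.63). Of these calls, 4 were lost when 1 mouse was left out. Against insulin-only sums, Xbp1 was lost without HC mouse 1, chow mouse 1 or chow mouse 3 (edgeR adjusted p = 0.052 to 0.292) and Hsp90b1 without chow mouse 2 (0.113). Against glucagon-only sums, Hspa5 was lost without HC mouse 1, HC mouse 2, chow mouse 2 or chow mouse 3 (0.0627 to 0.169) and Ddit3 without HC mouse 2, chow mouse 1 or chow mouse 2 (0.0878 to 0.266). Of 13 mitochondrially encoded genes, 9 were lower than in insulin-only and 9 higher than in glucagon-only sums. Against glucagon-only sums, mt-Atp8 was lost without HC mouse 2 or chow mouse 3 (edgeR adjusted p = 0.057 and 0.0596) and mt-Nd1 without chow mouse 1 (0.110). The share of UMIs from the mitochondrial genome, at the median, was 3.98% and 2.55% in dual-hormone droplets of HC mice 1 and 2 and 2.93%, 2.01% and 2.36% in those of chow mice 1, 2 and 3. It was 4.03% and 2.56% in insulin-only barcodes of the HC mice and 3.38%, 2.01% and 2.22% in those of the chow mice, and 2.06% to 3.47% in glucagon-only barcodes.

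Very few genes were beyond both classes. Only 4 of 11003 genes (0.0364%) were higher than in both, Unc80, Fam92b, Zkscan7 and Bag3, and 10 (0.0909%) were lower than in both. Unc80, a subunit of the sodium leak channel complex, had log2 0.29 ± 0.0976 and 0.34 ± 0.101 (SE; edgeR adjusted p = 0.0343 and 0.00787). It had 0.985 and 1.19 UMIs per dual-hormone droplet in HC mice 1 and 2 and 0.966, 1.13 and 0.831 in chow mice 1, 2 and 3. Insulin-only barcodes had 0.403 to 0.670 and glucagon-only barcodes 0.269 to 0.442. The call against insulin-only sums was lost without HC mouse 1, HC mouse 2, chow mouse 2 or chow mouse 3 (edgeR adjusted p from 0.067 to 0.300), and that against glucagon-only sums without chow mouse 2 or chow mouse 3 (0.108 and 0.0755). Fam92b, Zkscan7 and Bag3, which fall outside the naming rule and are named after their values were seen, rest on 56, 33 and 30 UMIs in dual-hormone droplets. Gm42418 and AY036118, which overlap ribosomal RNA sequence, and 9530068E07Rik were lower than in both by the naming rule, with log2 between -0.95 and -0.41. Of the other 7, Ebi3, Zfp825, Xylt2 and Tmem106a had 0 counts in dual-hormone droplets, Flt1 had 1, Tubgcp2 7 and Sh3kbp1 11. Of these genes, Gm42418, AY036118, 9530068E07Rik, Zkscan7, Bag3, Tubgcp2, Sh3kbp1, Xylt2, Tmem106a and Flt1 each lost a call when 1 mouse was left out.

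Dual-hormone droplets differed among themselves in how much of each type they held. Those with 5% to 10% Gcg (95 droplets) had 73.5 alpha list UMIs per 10000 UMIs outside the hormone genes in the median mouse, those with 10% to 20% (137) had 149, and those with 20% or more (37) had 220. Beta list UMIs were 677, 577 and 394 in the same order, and the median insulin share was 51.2%, 42.2% and 31.2%. Depth was alike in the bins, at a median of 10694, 11063 and 11088 UMIs. Over all dual-hormone droplets, Iapp made up most beta list UMIs and Ttr most alpha list UMIs, so the list sums mainly follow those genes. At least 1 UMI of Irx1 or Irx2 was found in 42 of 95, 76 of 137 and 26 of 37 droplets, and of Mafa in 82, 114 and 31. Gcg share set these bins, so its own course is no result, and the bins are given as a description without a test.

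**Figure D5:**
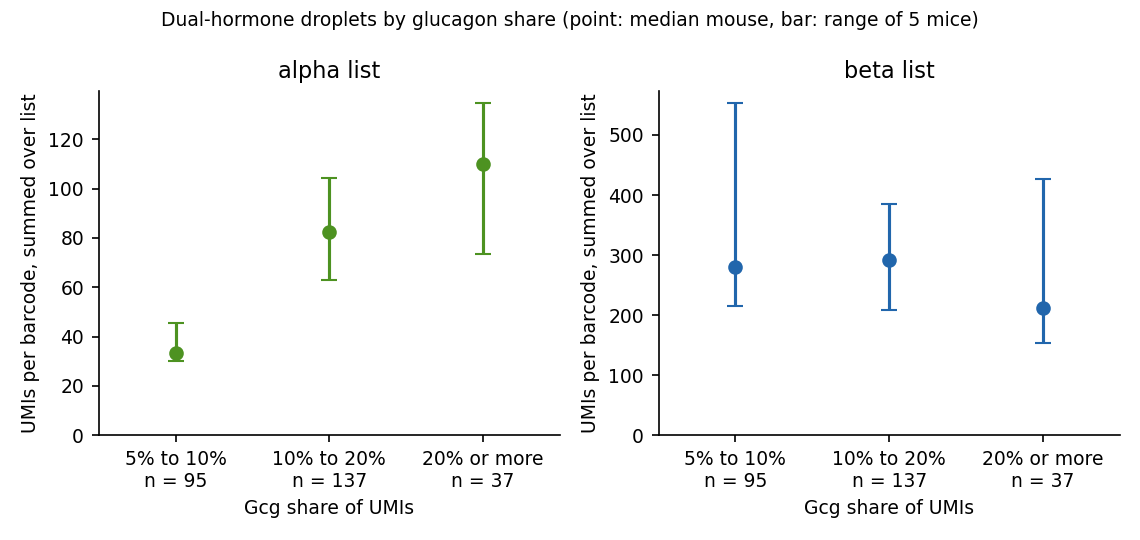
UMIs per dual-hormone droplet summed over the alpha list (left) and the beta list (right), by Gcg share of UMIs; points are the median mouse and bars the range of 5 mice. Alpha UMIs are 33.2, 82.3 and 110 in the median mouse from the low to the high bin, and the ranges of beta UMIs overlap. Over all dual-hormone droplets, Ttr makes up most alpha list UMIs and Iapp most beta list UMIs.

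The diets were compared within dual-hormone droplets by summed counts of 2 HC and 3 chow mice. edgeR called 0 of 4291 genes (0%), and the smallest adjusted p was 0.282; 236 genes had an unadjusted p under 0.05, 119 higher and 117 lower in HC, and DESeq2 called 0. Slc38a5, a glutamine transporter, had the smallest p. It had 1.12 and 0.917 UMIs per droplet in HC mice 1 and 2 and 0.414, 0.468 and 0.559 in chow mice 1, 2 and 3 (log2 1.21 ± 0.261, SE, edgeR adjusted p = 0.282). Slc38a5 was picked by its p, so its order across the mice is no separate evidence. It passed without HC mouse 2 or without chow mouse 3 (adjusted p = 0.000857 and 0.00406), without deep barcodes (0.0225), with no low-count filter (0.0132) and with HC mouse 2 grouped by its title (0.00737), where 21 genes were called. Atf5, a stress-responsive factor, had log2 0.97 (0.351), Esrp1 1.37 (0.586) and Gria2, an AMPA receptor subunit, 0.86 (0.586). The log2 value of Gria2 was 1.08 without HC mouse 2 and 0.96 with that mouse grouped by its title. In both of those fits HC mouse 1 stands alone in its group.

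The genes of smallest p in the other direction were Mfsd14a (log2 -1.67), Spsb2 (-1.39), Sqle (-1.22), a cholesterol synthesis enzyme, Rpp25l (-1.34) and Dcun1d5 (-1.01), with adjusted p from 0.586 to 0.862 in edgeR. Sqle had 0.162 and 0.167 UMIs per droplet in HC mice 1 and 2 and 0.655, 0.442 and 0.288 in chow mice 1, 2 and 3. Beta and alpha lists had 0 called genes, with median log2 values of -0.12 over 13 and 0.11 over 8 genes tested. Without HC mouse 2 edgeR called 13 genes, a fit in which HC mouse 1 stands alone and is assumed to vary like the chow mice. It called 1 without HC mouse 1 and 2 without chow mouse 3. With sums of 29 to 77 droplets a mouse, a change of modest size may not be detectable.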

How the data were processed

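Raw UMI counts per gene and barcode were deposited by the authors for 5 mice, without cell annotation. Cell Ranger 4.0.0 and build mm10 are named per the submitters' processing notes; aligner settings and filters are not given in the sources used here. Coordinates are from GENCODE M21 (GRCm38). Barcodes were filtered and classed as stated, in Python 3.11.15. Doublets were not removed; Scrublet ran in scanpy 1.11.5. Counts were summed by class and mouse and tested with edgeR 4.0.16 (TMM, filterByExpr, robust quasi-likelihood, Benjamini-Hochberg, threshold 0.05), with DESeq2 1.42.0 as an alternative. Classes of the same mouse are paired by animal, so mouse was a block; diet within dual-hormone droplets was tested over 5 sums. Each mouse is 1 library. P-values of class comparisons measure how a difference within a mouse varies from mouse to mouse. Those of diet measure the spread between mice. Class measures used exact sign flips over 5 mice. The code was tested on simulated data. Intervals cover counting error only. The closest libraries, chow mice 2 and 3, differed beyond sampling noise (chi-square 12.3 per degree of freedom). The members and gene lists were chosen with earlier results of these data known. Named genes are list members, the 10 largest log2 changes per direction with mean log2 CPM of at least 5 and 1 sign in 5 of 5 mice, up to 5 per direction beyond both classes, the 5 smallest p per direction for diet, and 2 to 4 genes of each other list. Alternatives covered thresholds, cell filter, depth, scaling, low counts, tool, block, mouse left out, title, prefix and age. Some genes are not reported here, and the joint detection measure first planned, which used them, was replaced by that of Mafa with Irx1 or Irx2.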

Additional observations from a re-analysis of the deposited data

Results flagged for a closer look

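Among 23 values checked over the 5 mice, 2 had 1 mouse far from the other 4; chance flags about 1 in 20 such groups. The stromal list summed to 0.448 UMIs per dual-hormone droplet in chow mouse 1, against 0.0169 to 0.0909 in the other 4 mice. There 6.90% of droplets had at least 3 stromal UMIs, and Rgs5, a pericyte gene, had 0.172 UMIs per droplet. The proliferation list summed to 0.271 UMIs per dual-hormone droplet in chow mouse 3, against 0 to 0.0556 in the other 4 mice, with 1.69% of its droplets at 3 or more such UMIs. Both rest on very few droplets.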

How the results depend on the processing

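Of 226 alternative values, 194 were marked as the same, 24 as moved and 8 as changed in sign. For counts of genes, the same meant a similar size. For the other measures it meant only the same sign, whatever the size. Detected genes at equal depth, against insulin-only, differed by -3.1 with stricter member thresholds (148 droplets) and 0 with laxer ones (325), and by -2.63 to 2.63 with 1 mouse left out (lowest without chow mouse 1). Against insulin-only they differed by 79.8 when thinned to 2000 UMIs in all. Against glucagon-only they differed by -133.6 under that thinning, since dual-hormone droplets then keep fewer UMIs outside the hormone genes. HC minus chow in the share was 0.0523 with laxer thresholds, 0.322 with HC mouse 2 grouped by its title and 0.617 within FUN libraries, and -0.364 to 0.231 with 1 mouse left out.

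With equal numbers of barcodes in each class, 3224 genes could be tested. Then 299 were higher and 211 lower than insulin-only, 362 higher and 365 lower than glucagon-only, 564 higher and 580 lower in insulin-only than in glucagon-only sums, and 0 higher and 2 lower than both. Genes lower than insulin-only numbered 366 with DESeq2 and 384 with no replicate block (mouse not in the model), where genes higher than both numbered 2 and lower than both 5. Of the calls of named genes, 58 were lost without the block, among them Npy (adjusted p of 0.112) and Mafa (0.0573) against insulin-only and Fos and Junb in both comparisons (0.0843 to 0.272). Over the alternatives, values of named genes between classes kept their side of the threshold and sign 2994 times, lost a call 239 times and changed sign 1 time. Stricter thresholds gave 711 genes higher than glucagon-only and 21 lower than both, and Fam92b -0.022 (log2) against insulin-only. Genes lower than both numbered 17 without deep barcodes and 6 with DESeq2. With 1 mouse left out, genes higher than both numbered 2 to 5 (2 without HC mouse 2). The cause of these changes was not tested, beyond the fewer genes or samples a setting leaves. Diet calls were 1 without deep barcodes, 1 with no low-count filter, 21 by title and 0 to 13 with 1 mouse left out. Diet under stricter thresholds was not run, since a mouse fell under 20 droplets.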

Other observations

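In UMIs per droplet against the insulin-only and glucagon-only values added together, a few abundant genes stood far from the median of 92.1%. The lowest were Hbb-bs, a beta globin (2.55%), Lyz2, a lysozyme of myeloid cells (13.6%), and the acinar genes Cela3b (21.2%), Clps (24.4%) and Cela2a (26.7%). The highest were the MHC class II genes H2-Aa (198%), H2-Ab1 (179%) and H2-Eb1 (172%), their partner Cd74 (178%), and Spp1, osteopontin (164%). For Cd74, HC mouse 2 and chow mouse 1 had 2.86 and 3.24 UMIs per dual-hormone droplet and the other 3 mice at most 0.0260, so its mean rests on those 2 mice. There 2.78% of 36 and 3.45% of 29 droplets had at least 3 leukocyte UMIs, which is very few droplets in each mouse. These genes were chosen after their values were seen and were not tested as a group. Counted by other pairs of hormones, 188 kept barcodes had at least 20% insulin and at least 5% Sst, with Gcg under 1%. Another 273 had at least 5% Gcg and at least 5% Sst, with insulin under 5%. Both counts were limited to Ppy under 2%.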
